A study of Mus musculus with 6 samples.

Results

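Transcripts of 8 genes for the desmosome and the cornified envelope (Dsg2, Dsc2, Dsp, Jup, Pkp2, Pkp3, Ppl and Evpl) were measured in cecal serrated polyps and in the cecum around them. The genes were chosen by name, with earlier results of these data known. Their Ensembl identifiers were found for 8 of 8 symbols among the 37991 genes counted. All 8 passed the filter on low counts that left 10960 genes for testing. The animals were 3 HBUS mice (1119, 1192 and 1199), sampled at 60 weeks, and each gave 1 polyp and 1 piece of surrounding normal distal cecum. In the HBUS strain the intestinal epithelium expresses 2 transgenes, HB-EGF (a ligand of the EGF receptor) and US28 (a cytomegalovirus chemokine receptor). The surrounding tissue carries them as well, and no mouse without them is compared here. The labels give no sex and no promoter for the transgenes. The question was whether these transcripts differ between a polyp and the tissue next to it in the same animal.

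Desmosomes are the spot junctions that tie the keratin filaments of neighbouring epithelial cells together. Desmogleins and desmocollins, the desmosomal cadherins, bridge the gap between the cells. Plakoglobin and the plakophilins bind their tails, and desmoplakin links this plaque to the keratins. Envoplakin and periplakin are relatives of desmoplakin that join the cornified envelope, the crosslinked protein shell of squamous cells such as those of the skin. Simple epithelium of the gut builds its desmosomes mainly from desmoglein 2 and desmocollin 2.

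Total counts ran from 6632645 to 13350119 per library, and the 8 genes together had 10770 to 28305 counts, or 0.477% to 0.665% of what remained after the mitochondrial rRNAs were set aside. The surrounding library of mouse 1199 stood apart, with 75.3% mitochondrial rRNA and a composition factor of 0.593 against 0.973 to 1.43 elsewhere. It was the highest of the 3 surrounding libraries for 7 of the 8 genes. All 25 general epithelial genes were detected and tested, with a summed level of 3661 to 4874 CPM in surrounding tissue and 4108 to 4793 CPM in polyps. They show epithelium in every sample but cannot check the labels of polyp and distal cecum. CPM are counts scaled to a common library size and composition. Of 12 squamous markers, 6 had no more than 3 counts in any library, and the basal keratin Krt5 had 0 in all 6. Krt14, the partner of Krt5, was the 1 squamous marker that passed the filter, and it passed through its polyp counts alone. It had 1, 1 and 4 counts in the surrounding tissue of mice 1119, 1192 and 1199 and 22, 30 and 18 in their polyps. Its log2 fold change was 3.50 ± 1.21 (edgeR adjusted p = 0.212), a value that passing in this way favours.

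Upstream sequence of RefSeq (GRCm38.p6) was at hand for Dsp and Jup, which encode proteins of the plaque (desmoplakin and plakoglobin). It is shown for these because upstream stretches of the other members were not used here; both are among the 6 of the 8 genes that stood higher in the polyp of every mouse. The sequences end at the base before the annotated gene, run 5′ to 3′ on the gene's strand, and carry the GC box GGGCGG or its reverse complement in capitals. The Dsp stretch is chr13:38151044-38151293 on the plus strand and the Jup stretch chr11:100397840-100398040 on the minus strand.
Dsp: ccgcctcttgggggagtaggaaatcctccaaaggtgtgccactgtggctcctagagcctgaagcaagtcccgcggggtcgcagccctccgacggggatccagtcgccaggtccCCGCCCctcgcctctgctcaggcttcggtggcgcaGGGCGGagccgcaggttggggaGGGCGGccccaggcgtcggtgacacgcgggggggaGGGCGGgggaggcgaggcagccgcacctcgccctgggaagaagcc
Jup: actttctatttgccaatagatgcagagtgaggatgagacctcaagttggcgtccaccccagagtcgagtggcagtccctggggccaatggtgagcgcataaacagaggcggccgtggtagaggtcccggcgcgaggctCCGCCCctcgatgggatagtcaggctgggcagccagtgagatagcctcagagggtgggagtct
The Dsp stretch of 250 bases was 72.4% G and C and held 4 GC boxes, searched on both strands. At least 1 GC box was found in 32.7% of the 32851 upstream stretches of that length, and at least 3 in 8.47%. The Jup stretch of 201 bases was 60.2% G and C and held 1 GC box. At least 1 was found in 24.8% of stretches of that length. The stretches behind these shares were not cut at the start of their gene as the Jup stretch was. Neither the Dsp nor the Jup stretch held the AP-1 letters TGANTCA, the grainyhead letters AACCNGTT or the TATA letters TATAAA, read on both strands. Over all stretches of 250 bases these were found in 6.75%, 1.79% and 12.4%, and over those of 201 bases in 5.59%, 1.42% and 9.18%.

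The fit placed all 8 transcripts higher in polyps than in the surrounding tissue, by amounts that did not pass the test. The fitted log2 fold changes (polyp over surrounding) ran from 0.12 for Evpl to 0.72 for Pkp2, with a median of 0.33, while the median over all 10960 genes was -0.02. None of the 8 passed edgeR's quasi-likelihood test with the animal as a block at a Benjamini-Hochberg adjusted p under 0.05, against 2.76% of all genes tested (1.72% higher and 1.04% lower in polyps). The 8 include 5 with an unadjusted p under 0.05, against 14.6% of all genes. Because the 8 were named with earlier results of these data known, such shares are no test of the set. Of the other tools, DESeq2 and limma-voom each called 1 of the 8, Pkp2, higher in polyps. Over all 10960 genes they called 326 and 252 higher. In 6 of the 8 (Dsg2, Dsc2, Dsp, Jup, Pkp2 and Pkp3) the polyp was the higher sample in every mouse, which held for 19.7% of all genes. In 4 (Dsg2, Jup, Pkp2 and Pkp3) the lowest polyp lay above the highest surrounding sample, against 9.84% of all genes. Over the 8 genes the polyp of mouse 1119 had a median difference of 0.37, that of mouse 1192 one of 0.48 and that of mouse 1199 one of 0.12. The smallest difference of a gene fell in mouse 1199 for 5 of the 8. Without that mouse the fitted median was 0.41, and 0 of the 8 were called, against 79 higher and 21 lower of 11590 genes.

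**Figure D1:**
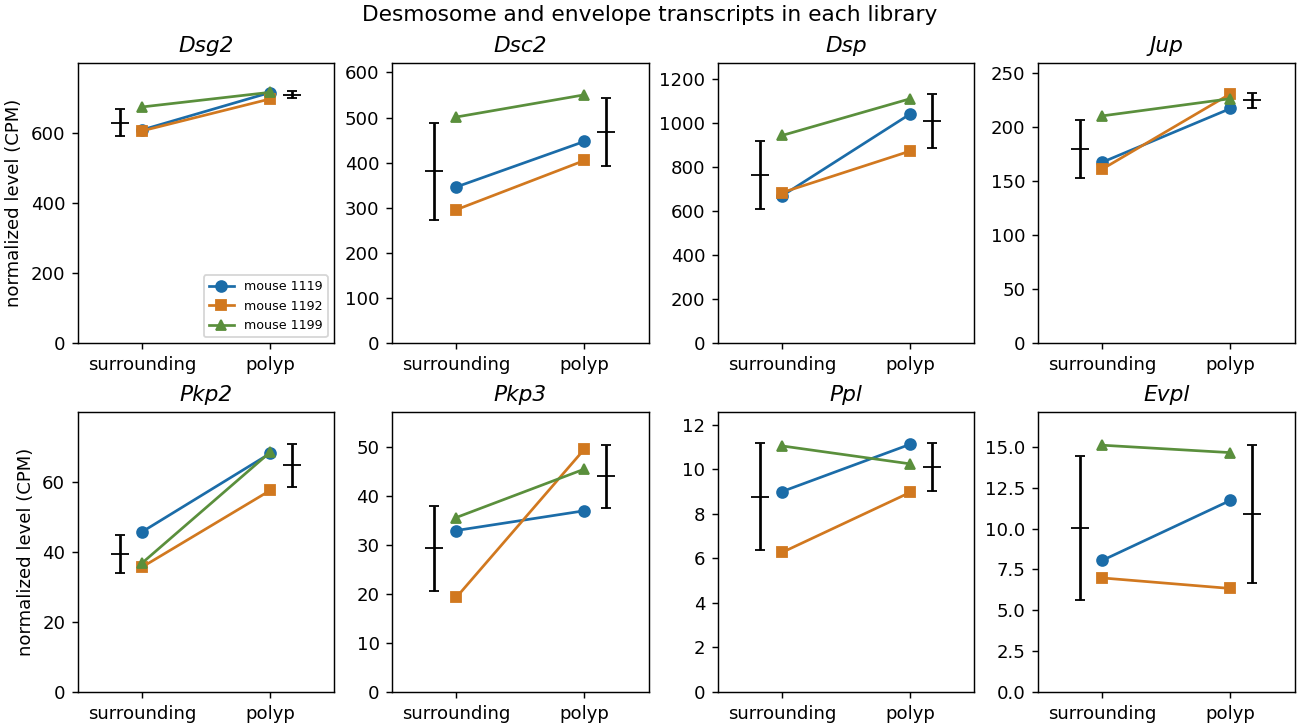
Normalized level (CPM, linear axis from 0) of each of the 8 transcripts, with a line joining the surrounding and polyp sample of each of the 3 mice and black bars for mean ± SD (n = 3). The lines of Dsg2, Dsc2, Dsp, Jup, Pkp2 and Pkp3 go up in every mouse, while those of Ppl and Evpl go both ways.

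Of the desmosomal cadherins, Dsg2 (ENSMUSG00000044393), desmoglein 2, was at 609, 606 and 675 CPM in the surrounding tissue of mice 1119, 1192 and 1199 and at 716, 698 and 716 CPM in their polyps. The polyps lay in a narrow band above all surrounding samples. Means were 630.0 ± 38.7 and 709.9 ± 10.7 CPM (SD, n = 3), a 1.13-fold difference (95% interval of the fit 0.914 to 1.39, edgeR adjusted p = 0.625). Dsc2 (ENSMUSG00000024331), desmocollin 2, had 346, 296 and 501 CPM in surrounding tissue and 447, 405 and 551 CPM in polyps, in the same order of mice. Both groups were spread widely, with mouse 1199 high and mouse 1192 low in each, so that the groups overlapped although every pair went up. The fold was 1.25 (interval 1.00 to 1.55, edgeR adjusted p = 0.331). Both genes lie on chromosome 18. The difference of Dsg2 was below that of Dsc2 in each mouse, by 0.14, 0.25 and 0.05 on the log2 scale, and 3 pairs cannot give an exact two-sided p below 0.25.

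Other desmosomal cadherins, which belong to stratified epithelium, were close to absent. The 5 genes Dsg1a, Dsg1b, Dsg1c, Dsg3 and Dsg4 had 43 counts together over all 6 libraries, where Dsg2 had 37378. Dsc1 and Dsc3 had 4 counts together, where Dsc2 had 22534. Dsg1c and Dsc1 had 0 in every library, a result that a level of up to 3 counts, or 0.214 to 0.676 CPM by library, would also allow. None of these genes passed the filter on low counts, so polyps and surrounding tissue were not compared for them.

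Of the plaque, Dsp (ENSMUSG00000054889), desmoplakin, was at 669.5, 684 and 943 CPM in surrounding tissue and at 1041, 873 and 1109.8 CPM in polyps of mice 1119, 1192 and 1199. The surrounding sample of mouse 1199 was above the polyp of mouse 1192, so the groups overlapped. The fold was 1.33 (interval 1.05 to 1.67, edgeR adjusted p = 0.229). Jup (ENSMUSG00000001552), plakoglobin, which also serves adherens junctions, had 167, 161 and 210.1 CPM in surrounding tissue and 217, 230.5 and 226 CPM in polyps. Its polyps were alike and all above the surrounding samples, the closest pair being that of mouse 1199. Means were 179 ± 26.7 and 224 ± 6.92 CPM (fold 1.26, interval 1.01 to 1.57, edgeR adjusted p = 0.323).

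The plakophilins, armadillo-repeat proteins that bind desmoplakin and gather the plaque, had the largest fitted differences of the 8. Pkp2 (ENSMUSG00000041957), the plakophilin of simple epithelium and heart, was at 45.7, 35.6 and 36.7 CPM in surrounding tissue and at 68.1, 57.5 and 68.4 CPM in polyps. The 3 pairs differed by 0.57, 0.69 and 0.89 on the log2 scale, and the groups were well apart. Means were 39.3 ± 5.50 and 64.7 ± 6.20 CPM, a log2 fold change of 0.72 ± 0.16 (standard error) or 1.64-fold (interval 1.28 to 2.11), which missed the threshold narrowly (edgeR adjusted p = 0.0517). Adjusted p over the alternatives ran from 0.00520 to 0.346, and 5 of 14 called it: no filter on low counts, a filter at 5 CPM, DESeq2, limma-voom, and removal of trends with transcript length and GC content. It missed the threshold with any 1 mouse left out. Pkp3 (ENSMUSG00000054065), the plakophilin found in most epithelia, had 33.0, 19.3 and 35.6 CPM in surrounding tissue and 37.0, 49.6 and 45.5 CPM in polyps. Mouse 1192 held both the lowest surrounding and the highest polyp value. Its pair differed by 1.35 on the log2 scale and the other pairs by 0.17 and 0.35. The fitted log2 fold change was 0.63 ± 0.25 (edgeR adjusted p = 0.277) and 0.22 without mouse 1192. The difference of Pkp2 exceeded that of Pkp3 in mice 1119 and 1199, by 0.41 and 0.54, and was below it by 0.66 in mouse 1192.

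The envelope plakins were scarce and without a common direction. Ppl (ENSMUSG00000039457), periplakin, had 8.998, 6.27 and 11.04 CPM in surrounding tissue and 11.1, 8.97 and 10.2 CPM in polyps, from 49 to 109 counts per library. It was higher in the polyps of mice 1119 and 1192 and lower in that of mouse 1199 (log2 fold change 0.24 ± 0.30, edgeR adjusted p = 0.775). Evpl (ENSMUSG00000034282), envoplakin, had 8.05, 6.98 and 15.1 CPM in surrounding tissue and 11.7, 6.33 and 14.6 CPM in polyps. Only the pair of mouse 1119 went up, by 0.53, and both tissues of mouse 1199 were high. The fit gave 0.12 ± 0.30 (edgeR adjusted p = 0.896) and -0.10 without mouse 1119. The intervals, 0.734 to 1.91-fold for Ppl and 0.680 to 1.74-fold for Evpl, leave room for a change of the size of that of Pkp2 in either gene.

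**Figure D2:**
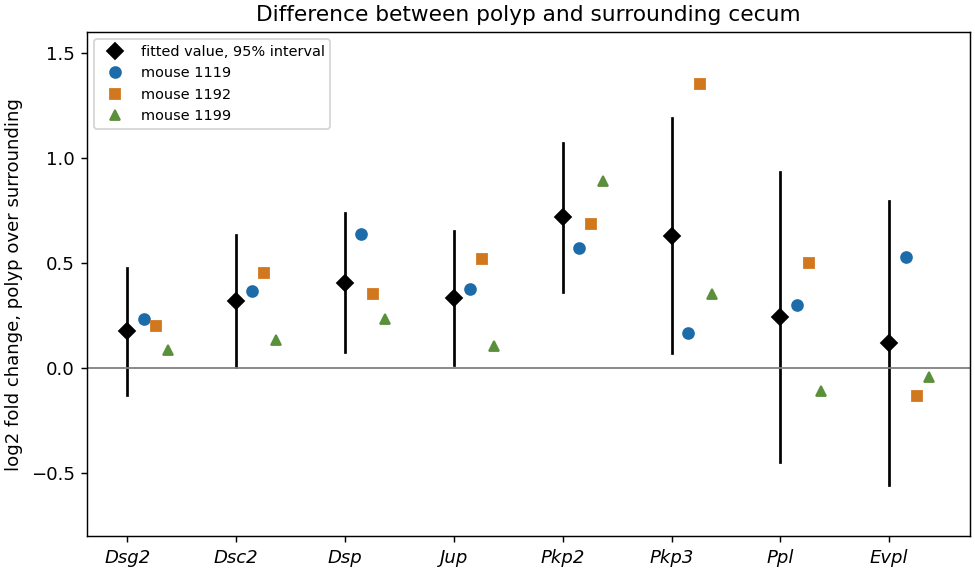
Log2 fold change (polyp over surrounding) of the 8 transcripts, with the fitted value and its 95% interval in black and the difference within each mouse as coloured points beside it. Pkp2 and Pkp3 have the highest fitted values, 0.72 and 0.63, and the intervals of Dsg2, Ppl and Evpl include 0.

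Divided by exon length, the 8 transcripts fell into 4 tiers. Dsp, Dsg2 and Dsc2 formed the highest, at 79.3 ± 15.9, 76.2 ± 4.68 and 72.2 ± 20.3 CPM per kilobase in surrounding tissue and 104 ± 12.6, 85.9 ± 1.30 and 88.6 ± 14.2 in polyps (SD, n = 3). Within this tier Dsg2 and Dsc2 changed places between mice, their ratio per length running from 0.831 to 1.31 over the 6 libraries. Dsp was above Dsc2 in every library, by 1.03 to 1.27 times, while its ratio to Dsg2 ran from 0.941 to 1.33. Ratios this near 1 depend on the exon lengths used, and the annotation behind the counts is not known. Jup followed at 27.9 ± 4.15 and 34.9 ± 1.07 CPM per kilobase, with Dsg2 2.36 to 2.93 times as high in each library. Pkp3 (8.10 ± 2.42 and 12.2 ± 1.78) and Pkp2 (7.34 ± 1.03 and 12.1 ± 1.16) made up the next tier and were not separated from each other, with a ratio of Pkp2 to Pkp3 between 0.696 and 1.24. Evpl (1.57 ± 0.69 and 1.71 ± 0.66) and Ppl (1.27 ± 0.35 and 1.47 ± 0.16) were lowest, their ratio of Ppl to Evpl lying between 0.647 and 1.31. Desmoplakin transcript exceeded that of its relatives per length in every library, by 53.1 to 77.9 times for Ppl and 41.3 to 91.1 times for Evpl. Per length, Pkp1, the plakophilin of stratified epithelium, reached 0.638 to 2.60 CPM per kilobase, and Pkp4, a relative found at adherens junctions and desmosomes, 5.06 to 10.8.

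**Figure D3:**
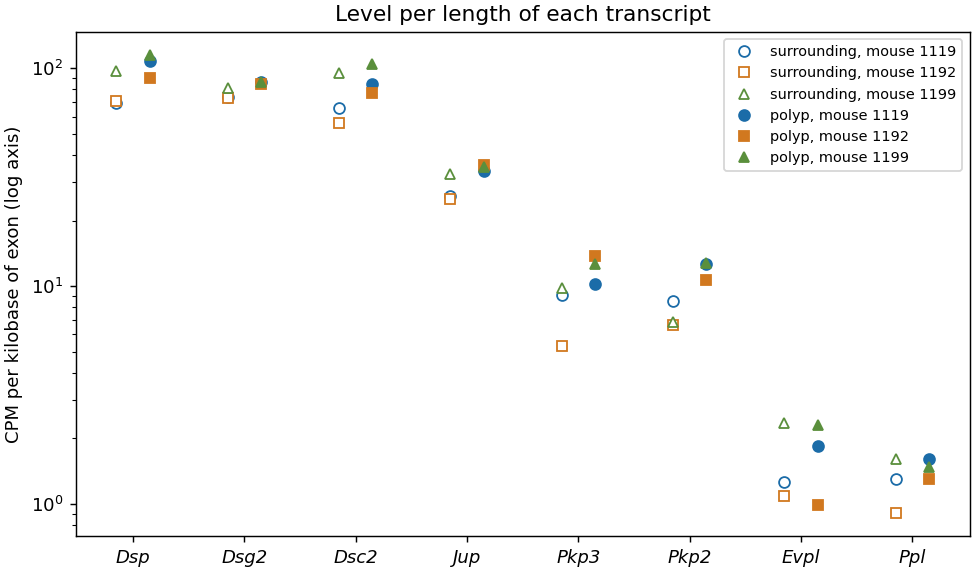
Level of the 8 transcripts in CPM per kilobase of exon (log axis), open symbols for surrounding tissue and filled symbols for polyps, with 1 symbol shape per mouse. Dsp, Dsg2 and Dsc2 stand above Jup, the plakophilins stand below it, and Evpl and Ppl are lowest in each of the 6 libraries.

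The remaining desmosome genes did not move one way. Of 13 listed, 5 were tested and 0 passed edgeR, DESeq2 or limma-voom. Of all 10960 genes, these tools called 189, 326 and 252 higher and 114, 215 and 159 lower. An unadjusted p under 0.05 was found for 3, against 14.6% of all genes, and the median log2 fold change was -0.12. Perp, a tetraspan desmosome protein, and Pkp4 had log2 fold changes of 0.32 ± 0.13 and 0.59 ± 0.17 (edgeR adjusted p = 0.317 and 0.139). Kazn, whose product kazrin binds periplakin, was at -1.23 ± 0.37 (edgeR adjusted p = 0.149), with 30.6, 24.4 and 11.7 CPM in surrounding tissue and 12.6, 5.43 and 10.5 CPM in polyps. It was called lower without the filter on low counts (edgeR adjusted p = 0.00147), the lowest of 14 alternatives, which reached 0.429. Pof1b, an actin-binding protein gene, was at -0.26 ± 0.14 (edgeR adjusted p = 0.475).

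Keratins form the filaments that desmosomes anchor. Of the simple epithelial keratins, 4 of 5 tested genes rose and 0 fell, against 1.72% and 1.04% of all genes tested. Their median log2 fold change was 0.73. Krt18 went from 85.9, 67.9 and 188 CPM in surrounding tissue to 296, 253 and 379 CPM in polyps of mice 1119, 1192 and 1199 (2.96-fold, interval 2.19 to 4.00, edgeR adjusted p = 0.0102). Krt8, its partner in the filament, went from 1276, 1014 and 1788 to 1930.2, 1932 and 2706 CPM (log2 fold change 0.71 ± 0.15, edgeR adjusted p = 0.0467). Krt19 rose by 0.73 ± 0.15 and Krt7 by 1.90 ± 0.28 (edgeR adjusted p = 0.0419 and 0.0153), while Krt20, a keratin of mature surface cells, was at 0.29 ± 0.16 (adjusted p = 0.465). By mouse the keratin median was 0.86, 0.93 and 0.60, beside 0.37, 0.48 and 0.12 for the 8 desmosome and envelope genes. The difference between the lists was not tested. Leaving out mouse 1119, 1192 or 1199 left 2, 1 and 2 passing keratins, and dropping the block for the animal left 0. Krt8 and Krt19 lost their calls with each mouse left out, Krt7 without mouse 1192.

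Hemidesmosomes, which hold the basal cell surface to the basement membrane, share the keratin network. In the list of other plakins and hemidesmosome genes, 3 of 9 tested genes rose and 0 fell, against 1.72% and 1.04% of all genes. The median log2 fold change was 0.85. Itga6, the integrin alpha-6 chain, went from 185, 150.1 and 279 CPM to 530.4, 364 and 493 CPM (2.31-fold, interval 1.78 to 2.996, edgeR adjusted p = 0.0121). The laminin-332 chains Lama3 and Lamb3 rose by 1.32 ± 0.25 and 0.85 ± 0.14 (edgeR adjusted p = 0.0334 and 0.0221). Itgb4, the partner of Itga6, was at 0.87 ± 0.19 and just missed the threshold (edgeR adjusted p = 0.0509), and 5 of 14 alternatives called it. Plectin (Plec), the plakin that ties keratin to this integrin, was at 0.50 ± 0.13 (edgeR adjusted p = 0.107). Dst, whose gene makes epithelial, muscle and neuronal plakins that gene counts do not separate, was at -0.21 ± 0.14. Leaving out mouse 1119, 1192 or 1199 left 1, 2 and 2 passing genes, and dropping the block left 0. Of all genes, these fits called 45, 153, 79 and 51 higher and 38, 128, 21 and 36 lower, against 189 and 114. Lamb3 lost its call with each mouse left out, Lama3 without mouse 1119 or 1199.

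Of 13 adherens junction genes tested, 0 passed edgeR and 5 had an unadjusted p under 0.05, against 2.76% and 14.6% of all genes. The median log2 fold change was 0.33. By mouse this median was 0.45, 0.18 and 0.20 in 1119, 1192 and 1199, so mouse 1192 had the lowest median here and the highest for the 8; the difference between the lists was not tested. DESeq2 and limma-voom each called 1, Cdh1. Of all 10960 genes they called 326 and 252 higher and 215 and 159 lower. Cdh1, E-cadherin, went from 512, 562 and 779 CPM to 989.5, 877 and 973 CPM (log2 fold change 0.64 ± 0.16, edgeR adjusted p = 0.0867). Nectin2 and Nectin3, cell adhesion receptors, were at 0.59 ± 0.19 and 0.50 ± 0.16 (adjusted p = 0.171 and 0.178), and Shroom3, an actin regulator of the apical junction, at -0.52 ± 0.18 (adjusted p = 0.215).

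Of 34 other cornified envelope genes, 33 were in the tables and 10 were tested. Among them 2 rose and 0 fell, against 1.72% and 1.04% of all genes tested, with a median log2 fold change of 0.63. Sprr1a, a small proline-rich envelope precursor, went from 15.9, 31.3 and 92.2 CPM to 93.0, 88.6 and 169.8 CPM (log2 fold change 1.62 ± 0.29, edgeR adjusted p = 0.0283), and S100a11, a calcium-binding substrate of transglutaminase, rose by 1.42 ± 0.26 (edgeR adjusted p = 0.0290). Anxa1, an annexin found in envelopes, was at 2.37 ± 0.48 without passing (edgeR adjusted p = 0.107), and 5 of 14 alternatives called it. Sprr2a3 was at 0.61 ± 0.18 (adjusted p = 0.133), and reads shared with its near copies Sprr2a1 and Sprr2a2, which had -0.15 and -0.13, could not be followed. Defining genes of a mature squamous envelope were at 0: loricrin (Lor), Rptn, Sprr1b, Sprr3, Krtdap and 4 more of the list had no count in any library, and involucrin (Ivl) had 1 count in all. Leaving out mouse 1119, 1192 or 1199 left 1, 0 and 3 passing genes, and dropping the block left 0. Of all genes, these fits called 45, 153, 79 and 51 higher and 38, 128, 21 and 36 lower, against 189 and 114. Sprr1a lost its call without mouse 1192, and S100a11 without mouse 1119 or 1192.

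**Figure D4:**
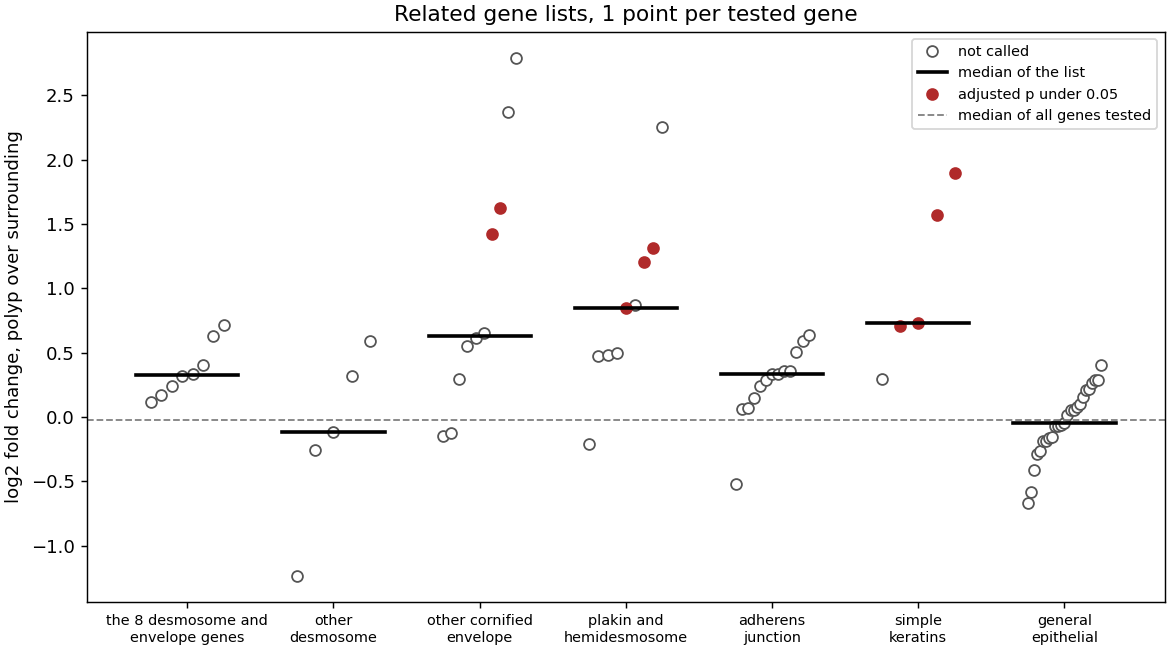
Log2 fold change (polyp over surrounding) of each tested gene in the 7 lists, filled where edgeR's adjusted p is under 0.05, with the median of each list as a bar and that of all genes tested as a dashed line. No gene is filled among the 8, the other desmosome, the adherens junction and the general epithelial genes. Of the keratins 4 of 5 are, against 2.76% of all genes tested.

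The 25 general epithelial genes gave a median log2 fold change of -0.04, with 12 above and 13 below 0. None was called by edgeR, DESeq2 or limma-voom, which called 189, 326 and 252 of all 10960 genes higher and 114, 215 and 159 lower. An unadjusted p under 0.05 was found for 2, against 14.6% of all genes (Epcam at 0.41 ± 0.15 and Cdx1 at -0.59 ± 0.18, edgeR adjusted p = 0.251 and 0.158). With libraries scaled to the 25 genes instead of all genes, the 8 desmosome and envelope genes had a median of 0.37, all above 0. Of the 8, 0 were called, against 269 of all 10960 genes. The samples were whole tissue, in which fewer cells of a type and less RNA per cell cannot be told apart. Summed markers of smooth muscle and fibroblasts did not overlap between the tissues. Among 10960 single genes tested, 1079 had all polyps higher and 940 all polyps lower. The summed level of 10 smooth muscle markers was 177 to 207 CPM in surrounding tissue and 19.5 to 84.9 CPM in polyps, and that of 10 fibroblast markers 74.8 to 159.8 and 222 to 561 CPM. The 10 endothelial markers summed to 11.5 to 20.1 and 16.4 to 47.4 CPM and the 10 leukocyte markers to 33.0 to 62.7 and 45.5 to 67.8 CPM. Mesothelium, which also forms desmosomes, was low in both (7 markers counted, 3.38 to 8.24 and 4.52 to 8.53 CPM). The 12 squamous markers summed to 1.42 to 3.83 CPM in surrounding tissue and to 4.69 to 5.80 CPM in polyps, of which Krt14 made up 0.0712 to 0.902 and 2.47 to 2.66 CPM. No difference is read from this low sum, because Krt14 passed the filter through its polyp counts alone. The part of these cell types in the differences of the desmosome genes was not tested.

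Some genes lay nearer the mean profile of the 8 than any of the 8 did. They were picked as the smallest of 5585 distances over 6 libraries, so their nearness is no result about the 8. A shared control was not tested. Among 5585 named protein-coding genes of at least moderate level (mean log2 CPM of 3 or more), the closest, by root mean square distance of centred log2 CPM over the 6 libraries, were Ypel5 (0.039), Rab1a (0.050), Abi1 (0.055), Akirin1 (0.063), Prr13 (0.066) and Patj (0.068). Within the 8, Dsp and Dsc2 lay closest to the mean at 0.091 and 0.092, and Evpl farthest at 0.35. The profile itself was lowest in the surrounding tissue of mouse 1192 (-0.46) and highest in the polyp of mouse 1199 (0.32), with the surrounding tissue of mouse 1199 (0.11) above the polyp of mouse 1192 (0.03).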

How the data were processed

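RNA was sequenced from 6 samples, 2 per mouse. For each library the authors deposited a table of unnormalized whole-number read counts by Ensembl gene, per the file headers. The submitters' processing notes name HTSeq 0.5.3p9, TopHat2 2.0.7 and Bowtie 0.12.9; the genome build, annotation and settings are not given in the sources used. Per the labels' protocols, RNA went through MICROBEnrich and a bacterial rRNA removal kit, so mouse counts may come from RNA left after depletion. Strand is not stated: Dsg2 and Dsp exons overlap those of Gm16090 (46 counts in all) and Gm10129 (no row in the tables), and such reads may not be told apart.

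GENCODE M21 gave names for 32919 of 37991 identifiers and exon lengths. Counts were tested in edgeR 4.0.16 (R 4.3.3, limma 3.58.1) with TMM scaling, filterByExpr (minimum count 10), robust quasi-likelihood and the mouse as a block, two-sided, on 2 residual degrees of freedom plus a median of 6.63 prior ones. Adjustment covered all 10960 genes. Standard errors and 95% intervals derive from the test statistic. Log2 differences within a mouse used a prior count of 2. Pairing follows the animal named in each title; deviations from tissue means correlated by 0.0719, 0.127 and 0.159 within mice and by -0.12 to -0.00294 between them. Libraries of 1 tissue differed beyond sampling noise (chi-square over its degrees of freedom 22.2 to 79.5). Floors of 3 counts cover counting error only. The test was run on simulated data first.

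Members and lists were chosen with earlier results of these data known. Text names all 8 genes, the called genes and up to 4 of smallest p in each list (Krt20, Plec, Dst, Pkp1, the scarce desmogleins and desmocollins, Ivl, the Sprr2a copies, genes at 0 and those of the other observations were added after their values were seen), and the 6 genes nearest the mean profile. Flg, Eppk1 and Muc16 were not analysed here. Alternatives were scaling (RLE, upper quartile, epithelial genes, genes above 1% of a library left out), filters, no robust estimation, no block, DESeq2 1.42.0, limma-voom, length and GC trends, and each mouse left out.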

Additional observations from a re-analysis of the deposited data

How the results depend on the processing

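The median log2 fold change of the 8 desmosome and envelope genes stayed above 0 under all 14 alternatives, between 0.21 (without mouse 1192) and 0.41 (without mouse 1199), and 0 of the 8 were called under 9 of them. Exactly 1, Pkp2, was called without the filter on low counts, with a mean of at least 5 CPM, with DESeq2, with limma-voom and with length and GC trends removed. Over the 8 genes and 14 alternatives, 106 of 112 values kept their direction and side of the threshold, 5 newly passed it, and 1 turned: Evpl ran from -0.10 to 0.21 with 1 mouse left out. Of all genes, 303 of 10960 were called, 753 of 21370 without the filter and 445 of 7339 at a mean of 5 CPM. Of the 10960, DESeq2 called 541, and limma-voom called 252 higher and 159 lower. Upper-quartile scaling gave 302 and no robust estimation 254. Removal of length and GC trends gave 186 higher and 116 lower. With 1 mouse left out, 83 to 281 were called. Without the replicate block 87 of all genes passed, and 0 of the keratin, hemidesmosome and envelope lists and of the 8. Called keratins (4) numbered 2 with upper-quartile scaling, without robust estimation and with length and GC trends removed, and 1 to 2 with 1 mouse left out. Called plakin and hemidesmosome genes (3) numbered 5 without the filter, 6 with DESeq2, 6 with limma-voom and 1 to 2 with 1 mouse left out. Called other envelope genes (2) numbered 4 without the filter, 4 with DESeq2 and 0 to 3 with 1 mouse left out. Adherens junction genes (0) numbered 1, Cdh1, without the filter, at 5 CPM, with DESeq2 and with limma-voom, and other desmosome genes (0) 1, Kazn, without the filter. Leaving out a mouse leaves fewer samples; for the other changes the cause was not tested. Low counts, 49 to 109 per library, limit what Ppl and Evpl can show.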

Other observations

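Several squamous and junction genes too scarce to be tested had counts mostly in 1 tissue or in 1 library. They were picked here after their counts were seen, and no comparison was made. In mice 1119, 1192 and 1199, Krt80, a keratin associated with desmosomes, had 1, 0 and 3 counts in surrounding tissue and 23, 1 and 22 in polyps. Tgm3, an epidermal transglutaminase, had 0 in every surrounding library and 0, 13 and 12 in polyps. Tgm5, a relative, had 13, 10 and 6 in surrounding tissue and 1, 0 and 3 in polyps. Scel (sciellin, an envelope precursor) had 14, 2 and 2 and then 0, 32 and 3, and Trp63, the regulator of basal squamous cells, 2, 0 and 0 and then 0, 25 and 2, so that both had most counts in the polyp of mouse 1192. Nectin4 had 2, 1 and 0 counts in surrounding tissue and 12, 1 and 11 in polyps. Cdh3, with 8, 3 and 1 counts, and Dsc3, with 3, 0 and 1, were counted in surrounding tissue and had 0 in every polyp.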
